A study of Mus musculus with 6 samples.

Results

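The 8 genes described here are 7 CXC chemokines, Cxcl1, Cxcl2, Cxcl3, Cxcl9, Cxcl10, Cxcl11 and Cxcl16, and the receptor Cxcr2, out of 23453 gene rows of the deposited count table. They were picked by symbol because earlier results of these same libraries showed them to differ between the groups, so their own differences are given as a description without a test. Bulk RNA was sequenced from spleen cells of OT1 mice (C57BL/6), in which a T cell receptor transgene recognises a peptide of OVA. All cultures had OVA peptide for 48 h and then 8 h of either FCM (3 libraries, titled vehicle) or TCM (3 libraries), abbreviations that the labels do not expand. The labelled cell type of all 6 is cytotoxic T lymphocytes, and no label says whether each library is its own culture or animal, so the p-values below cover only the scatter among these 6 libraries. Markers of other spleen cells were present in both groups and are given near the end.

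Chemokines are small secreted proteins that steer the migration of leukocytes, and the CXC family carries a single residue between its first pair of cysteines. Cxcl1, Cxcl2 and Cxcl3 bind Cxcr2, which neutrophils carry and which draws them to inflamed tissue. Their genes are classic targets of NF-kB in cells that sense interleukin 1, tumour necrosis factor or microbial products, and their mRNAs decay fast. Cxcl9, Cxcl10 and Cxcl11 are induced by interferons and bind Cxcr3 on activated T cells and NK cells. Cxcl16 is made as a membrane protein that can be shed, and binds Cxcr6 on T cells.

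Groups follow the header of the deposited count table. The deposited normalized table contradicts it: all 6 of its columns are scaled copies of a count column titled with the opposite group, and 0 match the count column of their own title. Every direction below reverses if the header of the normalized table is the right one. Total counts ran from 17166687 to 25789381, and levels are CPM, counts relative to the library total scaled by TMM, so that 1 count was worth 0.0374 to 0.0655 CPM. In a principal component analysis 86.4% of the variance lay on component 1, while component 2 (8.32%) set both replicate 1 libraries apart from the others. Because the libraries are bulk samples, fewer cells of a type and less RNA per cell cannot be told apart.

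Members formed 4 loci in the mouse genome (GRCm38, GENCODE M21). Cxcl3 (chr5:90786103-90789600), Cxcl1 (chr5:90891241-90893115) and Cxcl2 (chr5:90903871-90905938) lie on the plus strand of chromosome 5, with 10.8 kb between Cxcl1 and Cxcl2 and 102 kb between Cxcl3 and Cxcl1. Cxcl9 (chr5:92321347-92328079), Cxcl10 (chr5:92346638-92348889) and Cxcl11 (chr5:92359544-92365485) follow 1420 kb further on, on the minus strand. Cxcl16 is at chr11:70453983-70459984 on the minus strand and Cxcr2 at chr1:74153989-74161246 on the plus strand. Values are reads over exons. Cxcl11 is annotated as a polymorphic pseudogene in GENCODE and a transcribed pseudogene in RefSeq, and C57BL/6 mice are known to lack its functional protein, so its values speak of transcript alone.

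Promoters, taken as the 250 bases before the RefSeq start, were listed for 6 of the 8 members in RefSeq's GRCm38.p6 table, all but Cxcl11 and Cxcl16. They are shown for both chromosome 5 clusters because these differed in opposite directions, and in each sequence capitals mark a match, on either strand, to a searched motif. Of the Cxcr2 ligands the last 150 bases before the start are printed, 5′ to 3′ on the plus strand, since these hold all their matches, from chr5:90891095-90891244 for Cxcl1, chr5:90903749-90903898 for Cxcl2 and chr5:90785951-90786100 for Cxcl3. The capitals are NF-kB type letters (GGNNTTTCC), and in Cxcl3 also TATAAA.
Cxcl1: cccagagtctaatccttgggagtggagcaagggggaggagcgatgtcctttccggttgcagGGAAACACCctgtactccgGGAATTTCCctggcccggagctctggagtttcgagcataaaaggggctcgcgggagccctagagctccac
Cxcl2: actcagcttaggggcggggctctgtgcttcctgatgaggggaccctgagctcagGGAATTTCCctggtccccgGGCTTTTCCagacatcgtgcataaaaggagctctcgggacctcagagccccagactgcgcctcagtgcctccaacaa
Cxcl3: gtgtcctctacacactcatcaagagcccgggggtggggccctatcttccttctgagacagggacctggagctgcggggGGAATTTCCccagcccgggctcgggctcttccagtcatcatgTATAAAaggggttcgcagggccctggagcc

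The interferon-inducible genes Cxcl9 (chr5:92328080-92328329) and Cxcl10 (chr5:92348890-92349139) are printed with all 250 bases, on the minus strand, since their matches spread further. Capitals mark NF-kB type letters in both, ISRE type letters (GAAANNGAA, the interferon-stimulated response element) in both, TATAAA in Cxcl9 and AP-1 type letters (TGANTCA) in Cxcl10.
Cxcl9: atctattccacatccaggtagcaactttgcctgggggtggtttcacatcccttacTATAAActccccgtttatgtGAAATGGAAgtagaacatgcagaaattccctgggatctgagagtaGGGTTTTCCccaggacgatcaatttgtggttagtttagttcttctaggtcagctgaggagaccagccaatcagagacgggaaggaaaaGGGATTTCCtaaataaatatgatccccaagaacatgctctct
Cxcl10: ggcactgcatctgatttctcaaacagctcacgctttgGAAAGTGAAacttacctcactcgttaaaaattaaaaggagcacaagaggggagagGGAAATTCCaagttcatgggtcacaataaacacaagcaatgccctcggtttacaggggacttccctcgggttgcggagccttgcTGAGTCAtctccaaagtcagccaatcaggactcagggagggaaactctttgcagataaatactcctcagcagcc

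All 3 Cxcr2 ligands held the string GGAATTTCC, which began 70 bases before the RefSeq start in Cxcl1, 96 in Cxcl2 and 72 in Cxcl3. The GENCODE start given above lies 28 bases before the RefSeq start in Cxcl2 and 4 before it in Cxcl1, so that from the GENCODE starts the string began 66, 68 and 74 bases upstream. Cxcl1 and Cxcl2 held a further NF-kB type match, and Cxcl9 had 2 and Cxcl10 had 1. Of 32851 promoters in the table, 4.9% held at least 1 such match. ISRE type letters stood in Cxcl9 and Cxcl10 and in none of Cxcl1, Cxcl2, Cxcl3 and Cxcr2, against 7.1% of all promoters. They were not particular to the interferon-inducible ligands: of other CXC genes searched, Cxcr1 held 2 such matches, while Cxcr3, Cxcr6, Pf4 and Ppbp held 0. AP-1 type letters were found in 6.7% of all promoters and TATAAA in 12.4%. The letters TTCNNNGAA (GAS type, the interferon gamma activated site), held by 7.0% of all promoters, were in none of the 6 members listed, and the Cxcr2 window held no match to any of the 5 motifs. A match describes letters and not binding.

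Among the members, 3 were higher in TCM and 5 were lower, and the 3 FCM libraries did not overlap the 3 TCM libraries for any of the 8. With edgeR's quasi-likelihood test, 58.8% of the 12423 genes tested had an adjusted p under 0.05, with 28.8% of tested genes higher and 30% lower in TCM, and 64.2% of tested genes had groups that did not overlap. These shares are the background of the comparison, and nothing is read from the members' counts against them. All 8 members passed the filter on low counts, but Cxcl1 reached 10 counts in 0 FCM libraries and Cxcr2 in 1 TCM library, so each passed through the group in which it is high.

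Cxcl1, the best known of the mouse neutrophil-attracting ligands, had 2, 4 and 5 counts in FCM replicates 1 to 3 and 326, 383 and 439 in TCM, or 0.0908, 0.150 and 0.194 CPM against 17.3, 25.1 and 24.7 CPM. It was close to undetected in each FCM library and plainly present in each TCM library. Its log2 difference, TCM minus FCM, was 7.19 ± 0.28 (SE), a 146-fold ratio that rests on 11 counts in all of FCM. Leaving out 1 library at a time gave 126-fold to 173-fold.

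Cxcl2, also called MIP-2, stood at 17.3, 26.5 and 25.3 CPM in FCM and at 341, 503 and 565 CPM in TCM. The mean went from 23.0 ± 5.01 to 469 ± 116 CPM (SD, n = 3), a log2 difference of 4.35 ± 0.26 or 20.4-fold. Replicate 1 was the lowest library in both groups. Cxcl3, the third member of the cluster, stood at 2.9, 4.15 and 4.58 CPM in FCM and 119, 163 and 171 CPM in TCM, a log2 difference of 5.28 ± 0.23 or 38.7-fold. It too was lowest in replicate 1 of each group, and between libraries of the same number the log2 difference of Cxcl3 was 5.35, 5.29 and 5.23.

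The Cxcr2 ligands were also set against each other per kb of merged exon, the scale on which levels of different genes can be compared. Their summed level was 9.24, 14.1 and 13.7 CPM per kb in FCM and 208, 303 and 335 in TCM. Cxcl2 made up most of it in every library, with 90.4% ± 0.674 (SD, n = 3) of the sum in FCM and 80.3% ± 1.12 in TCM. Cxcl3 went from 9.0% ± 0.572 to 15.4% ± 0.86 and Cxcl1 from 0.616% ± 0.124 to 4.26% ± 0.293. Thus the minor members took a larger share in TCM, and the groups did not overlap for any of the 3 shares. These shares depend on the exon lengths, since merged exons include retained introns. With the exons of protein-coding transcripts alone, an alternative chosen after seeing the data, Cxcl2 held 75.8% ± 1.37 in FCM and 59.2% ± 1.7 in TCM, Cxcl3 23.3% ± 1.23 and 35.2% ± 1.44, and Cxcl1 0.912% ± 0.175 and 5.56% ± 0.314, again without overlap. Of the stretches of 50 bases in Cxcl2 transcripts, 5.84% also occur in Cxcl3, and 3.51% of those of Cxcl3 occur in Cxcl2, while Cxcl1 shares none with another gene. How reads of such stretches were counted is not given in the sources used here.

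**Figure D1:**
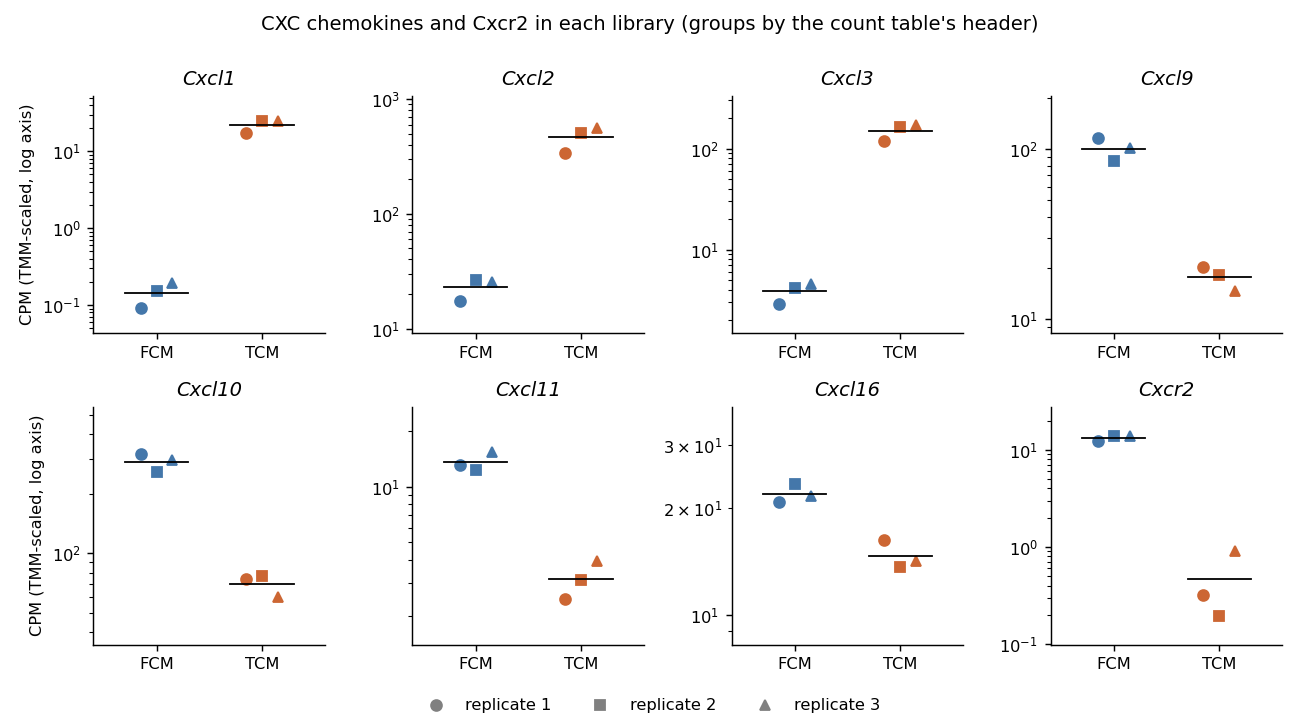
TMM-scaled CPM of the 8 genes in each library on a log axis that differs between panels, with points for replicates 1 to 3, lines for group means, blue for FCM and orange for TCM. The 3 TCM points lie above the 3 FCM points for Cxcl1, Cxcl2 and Cxcl3 and below them for the other 5 genes.

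Cxcr2, the receptor of these ligands, went the other way. It had 269, 375 and 356 counts in FCM and 6, 3 and 16 in TCM, or 12.2, 14.0 and 13.8 CPM against 0.319, 0.196 and 0.899 CPM. FCM libraries lay close together, while the TCM libraries were near the floor and spread over a range that TCM replicate 3 set at its top. The log2 difference was -4.78 ± 0.31, or 27.4-fold lower in TCM, and without TCM replicate 3 it was -5.62, or 49.3-fold. So the size of the fold rests on few TCM counts, 25 in all. The related receptor Cxcr1, 30539 bases from Cxcr2, had 3, 4 and 5 counts in FCM and 8, 3 and 10 in TCM, too few for the test.

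Neutrophil markers moved with Cxcr2. Of 18 such genes in the table, 17 fell in TCM, 0 rose and Mmp8 did not pass (adjusted p = 0.432); rises also numbered 0 by DESeq2 and at an unadjusted p under 0.05 in edgeR. The list had a median log2 difference of -3.15 against -0.02 over all tested genes. Their summed level was 8950 to 13600 CPM in the FCM libraries and 1560 to 2650 CPM in the TCM libraries, and no marker of the list was at 0 throughout. S100a9, a calcium-binding protein of granulocytes, fell from 3640 ± 700 to 704 ± 219 CPM (log2 difference -2.37 ± 0.29, adjusted p = 0.000162). S100a8, its partner, fell by 1.65 ± 0.30 on the log2 scale (adjusted p = 0.00168), and the granule gene Ngp fell by 5.39 ± 0.29 (adjusted p = 1.44e-06). The part of these cells in the Cxcr2 values was not tested.

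Genes that act downstream of Cxcr2 were mostly lower too. Of 18 genes for G proteins, phosphoinositide 3-kinase gamma, Rac activators, arrestins and Src-family kinases, 2 rose, 11 fell and 5 did not pass, with a median log2 difference of -0.50. Fgr, a myeloid Src-family kinase, fell from 72.6 ± 5.31 to 13.6 ± 1.54 CPM, by 2.42 ± 0.13 on the log2 scale (adjusted p = 1.52e-06). Pik3r6, a regulatory subunit of phosphoinositide 3-kinase gamma, fell by 2.07 ± 0.13 (adjusted p = 3.99e-06). The rises were those of beta-arrestin 1, Arrb1 (1.02 ± 0.12, adjusted p = 0.000113), and the G protein subunit Gnai3 (0.57 ± 0.19, adjusted p = 0.0302). Many of these genes are expressed across leukocytes, and Fgr is also known from macrophages. The count of rises was 4 with the replicate block, where Gnai2 (adjusted p = 0.00585) and Rac2 (adjusted p = 1.85e-05) joined. It was 1 with library totals alone and 1 without FCM replicate 2, FCM replicate 3 or TCM replicate 2.

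Receptors for other attractants of neutrophils and enzymes of leukotriene synthesis fell in larger number than they rose: 8 of 11 tested fell, 2 rose and Fpr1 did not pass (adjusted p = 0.146), with a median log2 difference of -0.83. Ptafr, the receptor for platelet-activating factor, fell from 43.3 ± 3.39 to 9.32 ± 0.841 CPM (log2 difference -2.21 ± 0.13, adjusted p = 1.9e-06). Alox5, which starts leukotriene synthesis, went from 151, 187 and 223 counts to 12, 9 and 18 (-3.31 ± 0.23, adjusted p = 5.9e-06). Rises were found for the complement receptor C3ar1, from 3.36 ± 0.59 to 20.5 ± 2.36 CPM (2.61 ± 0.16, adjusted p = 3.24e-06), and the CC chemokine receptor Ccr1 (0.55 ± 0.14, adjusted p = 0.00848), which lost its call with library totals alone (adjusted p = 0.176). With the replicate block Fpr1, a receptor for formyl peptides, also rose (0.29, adjusted p = 0.012), giving 3 rises.

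Cxcl9, an interferon gamma-inducible ligand of Cxcr3, stood at 116, 84.9 and 101 CPM in FCM and 20.3, 18.1 and 14.7 CPM in TCM, a log2 difference of -2.51 ± 0.17 or 5.68-fold lower. Cxcl10, also called IP-10, stood at 315, 256 and 295 CPM against 74.3, 76.5 and 60.4 CPM, a log2 difference of -2.04 ± 0.16 or 4.10-fold lower. FCM replicate 2 was the lowest FCM library for both genes, and it still lay far above the highest TCM library. Cxcl11, here a transcript of a pseudogene, stood at 13.1, 12.3 and 15.4 CPM against 2.45, 3.14 and 3.93 CPM, a log2 difference of -2.10 ± 0.19 or 4.29-fold lower. All 3 genes of this cluster thus stood lower in TCM, by factors from 4.10 to 5.68, while the factors of the Cxcr2 ligands ranged from 20.4 to 146.

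Within the Cxcr3 ligands Cxcl10 held most of the sum in both groups, with a larger share in TCM. Cxcl10 held 77.7% ± 0.707 of their summed CPM per kb in FCM and 82.3% ± 0.818 in TCM, Cxcl9 held 20.1% ± 0.907 and 15.4% ± 1.06, and Cxcl11 held 2.18% ± 0.262 and 2.27% ± 0.812. The groups did not overlap for Cxcl9 and Cxcl10 and did for Cxcl11. On protein-coding exon lengths Cxcl10 held 83.2% ± 0.576 in FCM and 86.9% ± 0.638 in TCM. Cxcl9 then held 15.2% ± 0.717 and 11.5% ± 0.805, and Cxcl11 1.58% ± 0.187 and 1.61% ± 0.58, with the same overlaps. Exons of Cxcl10 overlap those of Art3, which had 2 to 13 counts in each library, and 40.43% of the 50-base stretches of Cxcl11 also occur in the overlapping pseudogene Gm2673, so reads from that shared part cannot be told apart.

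**Figure D2:**
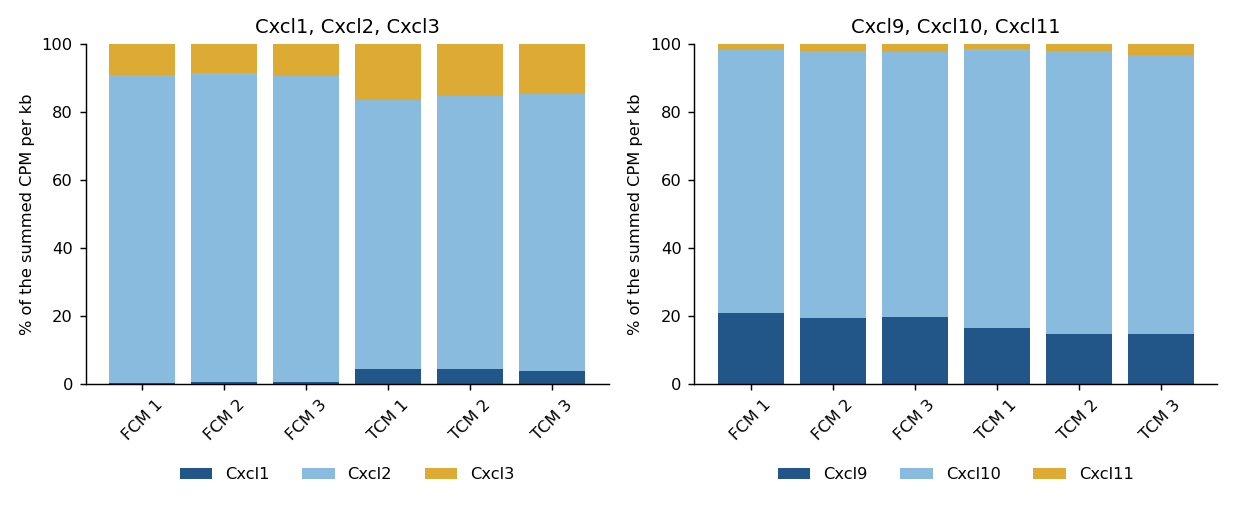
Share of each gene in the summed CPM per kb of Cxcl1, Cxcl2 and Cxcl3 (left) and of Cxcl9, Cxcl10 and Cxcl11 (right), with 1 stacked bar per library and replicates 1 to 3 of each group in order. On merged exon lengths Cxcl2 takes 89.7% to 91.0% in FCM and 79.2% to 81.5% in TCM (74.3% to 77.0% and 57.6% to 61.0% on protein-coding exon lengths), and Cxcl10 takes 77.0% to 78.4% in FCM and 81.8% to 83.2% in TCM.

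Cxcr3, the receptor for Cxcl9, Cxcl10 and Cxcl11 and itself no member, fell from 16.1 ± 2.08 to 8.83 ± 0.37 CPM (log2 difference -0.87 ± 0.13, adjusted p = 0.00061). Ackr3, a scavenging receptor that binds Cxcl11, went from 1.15 ± 0.469 to 0.825 ± 0.307 CPM and did not pass (-0.46 ± 0.38, adjusted p = 0.329). Ackr1, a scavenger of many chemokines on other cells, had at most 6 counts in a library and was not tested. Ackr2, mainly a scavenger of CC chemokines, had 16, 18 and 12 counts in FCM and 3, 2 and 2 in TCM and was not tested either.

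Most tested genes of the list called the interferon gamma axis fell in TCM. That list also holds genes of type I interferon signalling, namely Ifnb1, Ifnar1, Ifnar2, Stat2, Irf7 and Irf9. Of these, Ifnar1, Stat2, Irf7 and Irf9 were among the falls, so the falls are not of the gamma pathway alone. Of 23 tested of 24 listed, 14 fell, 8 did not pass and 1 rose, with a median log2 difference of -0.53. The rise was that of Ifng, the cytokine, from 809 ± 61.2 to 2010 ± 395 CPM (1.31 ± 0.20, adjusted p = 0.000636). Irf7, a transcription factor of the interferon response, fell from 219 ± 6.79 to 37.6 ± 2.97 CPM (-2.54 ± 0.13, adjusted p = 1.29e-06). The guanylate-binding protein genes Gbp3 and Gbp2, which interferon gamma induces, fell by 1.95 ± 0.13 (adjusted p = 4.07e-06) and 2.09 ± 0.15 (adjusted p = 8.41e-06). Irf1, an interferon-induced transcription factor, fell from 308 ± 31.8 to 113 ± 8.83 CPM (-1.44 ± 0.15, adjusted p = 5.6e-05). Among those that did not pass were Irf8 (0.03 ± 0.17, adjusted p = 0.889), Socs1 (0.16 ± 0.28, adjusted p = 0.636), Psmb8 (-0.21 ± 0.17, adjusted p = 0.321), Psmb9 (-0.17 ± 0.19, adjusted p = 0.47) and Tap1 (-0.37 ± 0.16, adjusted p = 0.0816). With library totals alone Psmb8, Psmb9 and Tap1 fell (adjusted p = 0.0175, 0.0369 and 0.0483). Thus transcripts for the cytokine were higher in TCM while those of Irf1, Cxcl9 and Cxcl10 were lower, but the list did not fall as a whole.

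The NF-kB list, with pathway genes and inducers of the Cxcr2 ligands, was divided. Of 22 tested, 7 rose, 6 fell and 9 did not pass, and the median log2 difference was 0.02. Il6, an inflammatory cytokine, rose from 49.1 ± 7.31 to 206 ± 61.9 CPM (2.07 ± 0.24, adjusted p = 0.000114). Il1a, an alarm cytokine that induces Cxcl1 in many cells, rose from 22.6 ± 1.55 to 74.2 ± 13.4 CPM (1.71 ± 0.15, adjusted p = 2.6e-05). Tlr2, a receptor for bacterial lipoproteins, fell from 23.1 ± 1.49 to 3.42 ± 0.857 CPM (-2.77 ± 0.17, adjusted p = 3.25e-06). Tnf, the gene of tumour necrosis factor, fell from 225 ± 31.2 to 139 ± 10.4 CPM (-0.69 ± 0.15, adjusted p = 0.0042), and Tlr4 fell by 1.59 ± 0.22 (adjusted p = 0.0003). The cytokine genes Il1b and Il17a rose by 0.86 ± 0.19 and 0.52 ± 0.18 (adjusted p = 0.00397 and 0.0287), so inducers on the list went both ways. With library totals alone 2 genes rose, Il6 and Il1a, and without FCM replicate 2 the count of rises was 4.

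Factors that control decay of such mRNAs mostly did not pass: of 10, 2 rose, 0 fell and 8 did not pass, with a median of 0.04. Falls at an unadjusted p under 0.05 in edgeR, and calls of a fall by DESeq2, also numbered 0. Zc3h12a, a ribonuclease that destroys inflammatory mRNAs, rose from 67.3 ± 4.47 to 167 ± 10.9 CPM (1.31 ± 0.13, adjusted p = 4.79e-05), and its relative Zc3h12d rose by 0.94 ± 0.15 (adjusted p = 0.000817). Zfp36, or tristetraprolin, which binds AU-rich elements, went from 395 ± 82.4 to 535 ± 129 CPM and did not pass (0.44 ± 0.23, adjusted p = 0.129). With the replicate block 4 rose, Zfp36 (adjusted p = 0.000244) and Khsrp (adjusted p = 0.00321) being added. Zfp36l1, Zfp36l2 and Rc3h1 then fell (adjusted p = 0.0311, 0.0199 and 0.0163), and without TCM replicate 1 the count of rises was also 4.

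Cxcl16 differed least of the members. It stood at 20.8, 23.3 and 21.6 CPM in FCM and 16.2, 13.6 and 14.2 CPM in TCM, a log2 difference of -0.58 ± 0.12 or 1.49-fold lower. The groups did not overlap, and TCM replicate 1 lay nearest to FCM. Its 5′ end overlaps Zmynd15 on the other strand, which had 18 to 51 counts in a library against at least 208 for Cxcl16. Cxcr6, the receptor of Cxcl16, rose from 17.9 ± 7.36 to 40.0 ± 6.57 CPM (1.16 ± 0.26, adjusted p = 0.0046), so ligand and receptor moved apart.

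Proteases that shed Cxcl16 or trim chemokines were uneven: of 6, 1 rose, 3 fell and 2 did not pass. Mmp12, the macrophage elastase, which can cut CXC chemokines, had 2, 4 and 1 counts in FCM and 304, 185 and 189 in TCM (log2 difference 7.03 ± 0.33, adjusted p = 8.73e-07). Mmp9, the gelatinase of neutrophil granules and also a neutrophil marker here, fell from 152 ± 8.26 to 11.2 ± 1.04 CPM (-3.76 ± 0.14, adjusted p = 3.68e-07). Dpp4, which trims Cxcl10 at its amino terminus, fell from 27.3 ± 1.92 to 11.6 ± 0.569 CPM (-1.24 ± 0.11, adjusted p = 3.25e-05). Adam17, a sheddase, fell by 0.83 ± 0.13 (adjusted p = 0.000603), and Adam10, the main sheddase of Cxcl16, did not pass (-0.18 ± 0.23, adjusted p = 0.512).

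Compared per kb of merged exon, the members changed places between the media. In FCM the order was Cxcl10 (128 CPM per kb), Cxcl9 (33.4), Cxcl2 (11.1), Cxcl16 (7.26), Cxcr2 (4.38), Cxcl11 (3.59), Cxcl3 (1.11) and Cxcl1 (0.0772). The ranges of neighbours in that order overlapped for Cxcr2 and Cxcl11 alone. In TCM it was Cxcl2 (227 CPM per kb), Cxcl3 (43.2), Cxcl10 (31.3), Cxcl1 (11.9), Cxcl9 (5.87), Cxcl16 (4.86), Cxcl11 (0.837) and Cxcr2 (0.155), with overlap between Cxcl3 and Cxcl10 and between Cxcl9 and Cxcl16. A Cxcr3 ligand therefore led in FCM and a Cxcr2 ligand in TCM. On protein-coding exon lengths Cxcl3 moved most, from 1.11 to 3.82 CPM per kb in FCM, where it swapped places with Cxcl11 (3.59) with overlapping ranges. In TCM it moved from 43.2 to 149, and its range (117 to 169) then lay above that of Cxcl10 (39.7 to 50.4).

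**Figure D3:**
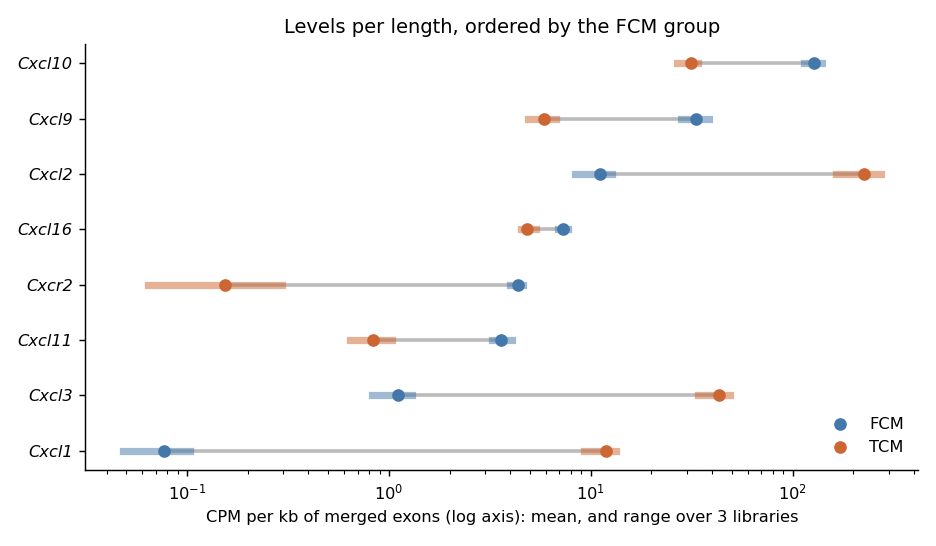
Mean level of each gene in CPM per kb of merged exon on a log axis, with thick bars for the range over 3 libraries, blue for FCM and orange for TCM, and genes in their FCM order. Cxcl10 leads in FCM at 128 and Cxcl2 leads in TCM at 227.

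Beyond the members, few CXC ligands were measurable. Of 8 others, 3 could be tested: Cxcl5 rose, Ppbp fell and Pf4 did not pass. Cxcl5, a further Cxcr2 ligand, had 2, 4 and 3 counts in FCM and 68, 78 and 84 in TCM, a log2 difference of 5.14 ± 0.30 (adjusted p = 2.19e-06), so it stood with Cxcl1, Cxcl2 and Cxcl3. Ppbp, the platelet precursor of a Cxcr2 ligand, had 29, 41 and 48 counts in FCM and 9, 10 and 19 in TCM (-1.10 ± 0.31, adjusted p = 0.0143). The call on Ppbp was lost without FCM replicate 3 (adjusted p = 0.0508) or without TCM replicate 2 (adjusted p = 0.0593). Pf4, platelet factor 4, was at 2.67 ± 0.553 and 2.55 ± 0.787 CPM (adjusted p = 0.798). Cxcl15, whose row bears the older symbol Il8, and Cxcl17 had 0 counts in all libraries, which allows up to 0.112 to 0.196 CPM per library (3 counts, counting error only), and Cxcl12, Cxcl13 and Cxcl14 had at most 4 counts in a library.

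Among 8 other CXC receptors, 5 were tested. Cxcr6 rose, Cxcr3 fell, and 3 did not pass. Cxcr5, the B cell follicle receptor, was at 147 ± 10.8 and 119 ± 20.6 CPM (-0.30 ± 0.16, adjusted p = 0.125) and Cxcr4, the Cxcl12 receptor, at 98.5 ± 14.9 and 131 ± 37.4 CPM (0.41 ± 0.22, adjusted p = 0.136). With the replicate block, Cxcr4 rose (adjusted p = 0.000763) and Cxcr5 fell (adjusted p = 0.00675), giving 2 rises and 2 falls. Without TCM replicate 1 there were 2 rises and 3 falls. The falls numbered 2 without FCM replicate 1, FCM replicate 3, TCM replicate 2 or TCM replicate 3, as Ackr2 then passed the filter on low counts and fell beside Cxcr3 (adjusted p from 0.00371 to 0.0141), while Cxcr5 did not pass.

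**Figure D4:**
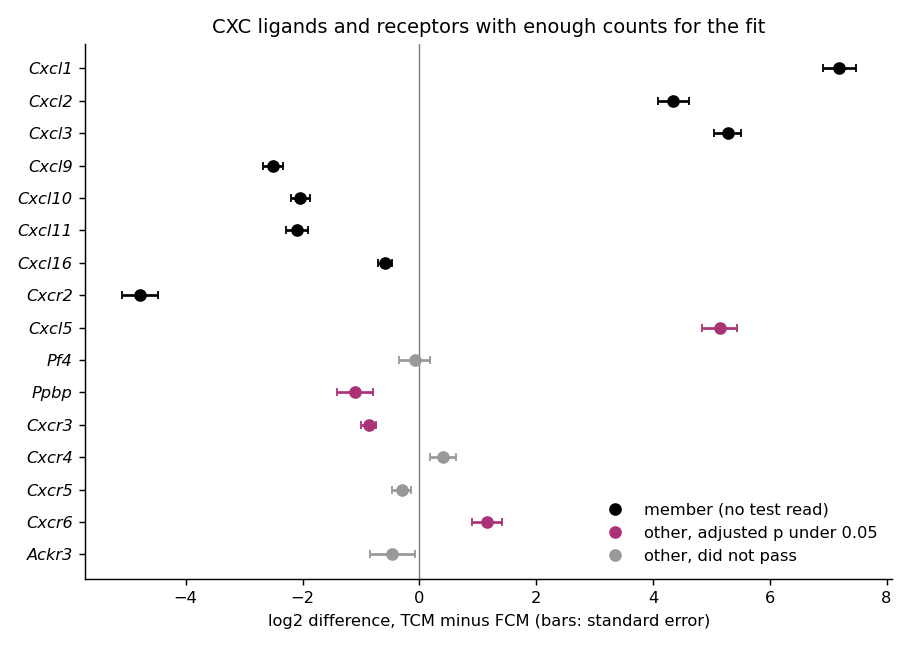
Log2 difference, TCM minus FCM, with its standard error for CXC ligands and receptors that passed the filter on low counts: black for the 8 members, purple for other genes with an adjusted p under 0.05 and grey for those that did not pass. Cxcl5 lies beside Cxcl1, Cxcl2 and Cxcl3 at 5.14, and Cxcr6 lies above 0 while its ligand Cxcl16 lies below.

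Genes around the members did not share 1 direction. Within 250 kb of a member 68 other rows had a gene model, and of 41 tested, 12 rose, 10 fell and 19 did not pass. At the locus of Cxcl1 to Cxcl3, 1 of 5 rose (Cxcl5) and 1 fell (Ppbp). Around Cxcl9 to Cxcl11, 2 of 8 rose and 4 fell, around Cxcr2 4 of 7 rose and 0 fell with TMM scaling, and around Cxcl16 5 of 21 rose and 5 fell. The falls around Cxcl16 include Zmynd15 (-0.54 ± 0.20, adjusted p = 0.0414, but 0.0531 with the replicate block). Its exons overlap those of Cxcl16, and 16.92% of the 50-base stretches of Cxcl16 occur in it, so its fall may not be separate from that of Cxcl16. By edgeR at an unadjusted p under 0.05 and by DESeq2 the falls around Cxcr2 were also 0, but with the replicate block Aamp (adjusted p = 0.0461) and Ctdsp1 (adjusted p = 7.81e-05) fell there. With library totals alone the Cxcr2 locus had 1 rise and 2 falls, as Tns1, Arpc2 and Pnkd lost their calls (adjusted p = 0.399, 0.0595 and 0.179), and without FCM replicate 2 or TCM replicate 3 it had 2 rises. With the replicate block 8 genes rose around Cxcl16. Over all neighbours within 250 kb, falls numbered 6 without FCM replicate 3 or TCM replicate 3 and 5 without TCM replicate 2.

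Near Cxcl9, Naaa, which codes for a lysosomal amidase, fell from 81.6 ± 5.59 to 11.3 ± 1.23 CPM (-2.85 ± 0.13, adjusted p = 8.25e-07). Sdad1, 10868 bases from Cxcl9, fell from 64.8 ± 0.964 to 33.4 ± 1.65 CPM (-0.95 ± 0.11, adjusted p = 0.000103). In the same region U90926 had 0 counts in each FCM library and 141, 190 and 314 in TCM, at least 103-fold higher against a floor of 3 counts per FCM library (adjusted p = 4.11e-05). So genes with opposite differences lay within 250 kb of the same member, from which nothing is read given the shares over all tested genes. Tmbim1 near Cxcr2 rose from 29.8 ± 5.84 to 86.6 ± 11.4 CPM (1.54 ± 0.17, adjusted p = 0.00011), and Bcl6b near Cxcl16 rose from 0.564 ± 0.193 to 3.01 ± 0.379 CPM (2.38 ± 0.26, adjusted p = 9.37e-05).

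**Figure D5:**
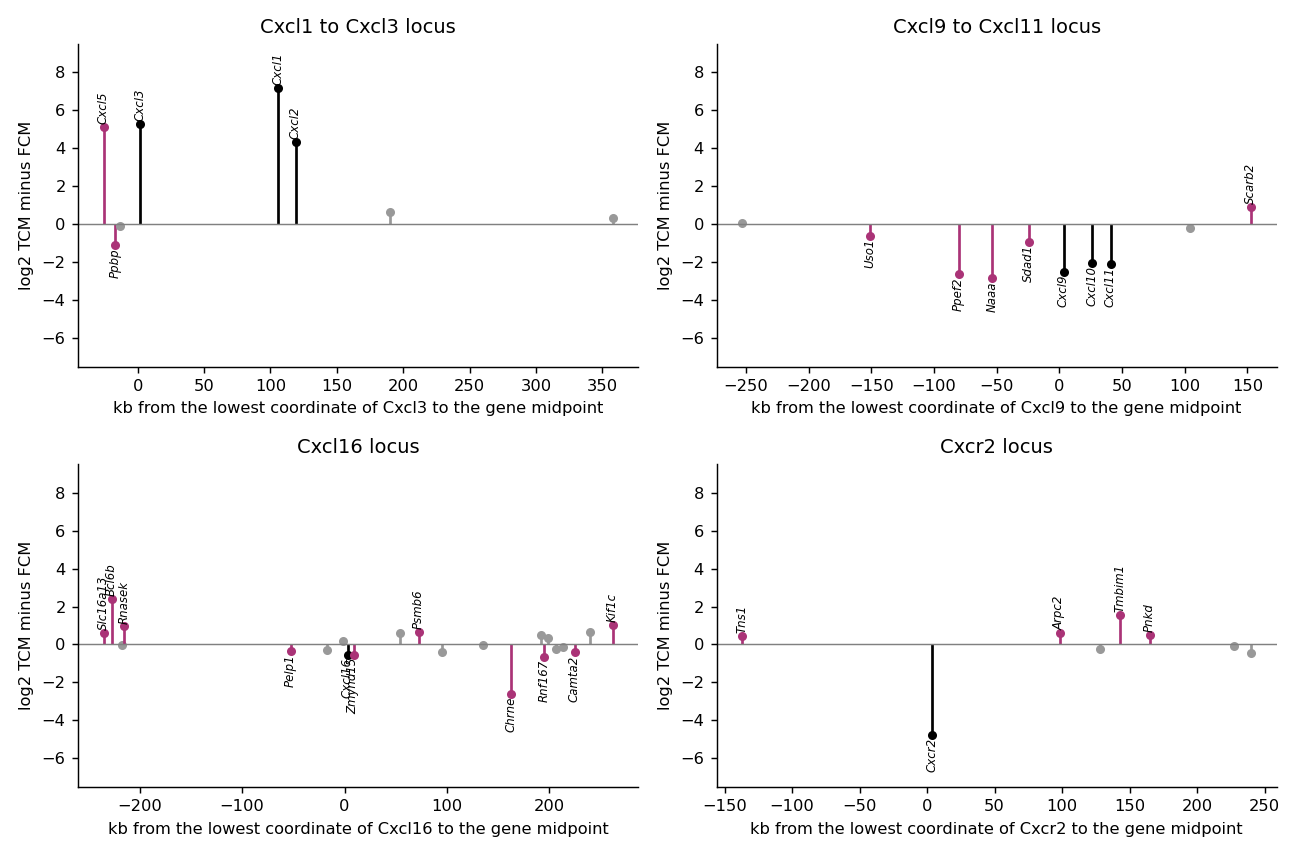
Log2 difference, TCM minus FCM, of members (black) and tested neighbours (purple with an adjusted p under 0.05, grey if not passed) by distance in kb along the chromosome, 1 panel per locus. U90926, at 0 in FCM, is left out, and Cxcr2 at -4.78 lies below all tested neighbours of its panel.

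By the pattern of log2 CPM over the 6 libraries, each gene centred on its mean, 8394 other genes with enough signal were compared with each member. The nearest was Sgip1 for Cxcl1 (Euclidean distance 0.95 on the log2 scale), Phlda3 for Cxcl2 (0.20), Crip2 for Cxcl3 (0.39), Gpr141 for Cxcl9 (0.33) and Cbfa2t3 for Cxcl10 (0.26). It was Trem3 for Cxcl11 (0.25), Fdft1 for Cxcl16 (0.05) and Camp for Cxcr2 (1.19). Second places went to Crip2 for Cxcl1 (1.32), Dapl1 for Cxcl2 (0.29), Il10 for Cxcl3 (0.90), Trim34a for Cxcl9 (0.34) and Mib2 for Cxcl10 (0.29). They went to Dgat2 for Cxcl11 (0.42), Cd97 for Cxcl16 (0.08) and Pglyrp1 for Cxcr2 (1.32). Camp and Pglyrp1 are genes of neutrophil granules, and Il10 codes for a regulatory cytokine. Nearness here largely follows the group difference, for which the members were picked. That difference was -4.86 ± 0.33 for Camp and -5.05 ± 0.26 for Pglyrp1, beside -4.78 ± 0.31 for Cxcr2. The near genes are therefore no separate link of a member to a cell type. The genes nearest to Cxcr2 and Cxcl1 lay farther off than those of the other members, but this holds only for the genes compared. Less abundant genes were left out, although Cxcl1 was itself close to undetected in FCM and Cxcr2 near the floor in TCM. Whether a closer match lies among the genes left out was not tested.

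The labelled cytotoxic T lymphocytes were not the only cells in the cultures by their markers. T cell markers summed to 924 to 990 CPM in FCM and 968 to 1030 CPM in TCM, with 2 of 10 up (Cd3d and Cd28), 3 down (Cd8a, Cd4 and Zap70) and 5 not passed. Cd28 lost its call with library totals alone and without FCM replicate 2, FCM replicate 3 or TCM replicate 2 (adjusted p from 0.0571 to 0.295), and Cd3d lost its call without TCM replicate 2 (adjusted p = 0.0619). Cd3e, a CD3 chain of the T cell receptor complex, was at 125 ± 16.8 and 137 ± 9.53 CPM (adjusted p = 0.459). B cell markers summed to 1860 to 2220 CPM in FCM and 990 to 1170 CPM in TCM, and 6 of 8 fell, among them Cd79a (-1.12 ± 0.26, adjusted p = 0.00554), while Ms4a1 did not pass.

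Macrophages and dendritic cells are known sources of the chemokines described here. Macrophage and monocyte markers summed to 849 to 882 CPM in FCM and 401 to 423 CPM in TCM: 9 of 15 fell, 3 rose (Cd14, Ms4a7 and Marco) and 3 did not pass. With library totals alone 1 rise was left, Marco, and the call on Ms4a7 was also lost without FCM replicates 1, 2 or 3 or TCM replicates 2 or 3, each in turn (adjusted p from 0.0547 to 0.116). Lyz2, the lysozyme of myeloid cells, fell from 414 ± 29.2 to 32.7 ± 2.09 CPM (-3.66 ± 0.15, adjusted p = 4.75e-07), Cd14, the lipopolysaccharide co-receptor, rose from 30.5 ± 0.569 to 49.6 ± 6.13 CPM (0.70 ± 0.12, adjusted p = 0.00124, but 0.0677 with library totals alone), and the cathepsin Ctss did not pass. Dendritic cell markers summed to 514 to 627 CPM in FCM and 734 to 749 CPM in TCM, and of 8 tested, 2 rose (Batf3 and Ccr7), 4 fell (Clec9a, Itgax, Siglech and Fscn1) and 2 did not pass, with Cd209a at 0 throughout. The higher sum in TCM came from Ccr7, which T cells express too: the other 9 markers summed to 293 to 365 CPM in FCM and 228 to 238 CPM in TCM. Batf3, a dendritic cell transcription factor, rose by 2.98 ± 0.19 (adjusted p = 3.24e-06), the migration receptor Ccr7 rose by 1.02 ± 0.15 (adjusted p = 0.000417), and the actin bundler Fscn1 fell by 0.70 ± 0.15 (adjusted p = 0.00317).

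Markers listed for other cell types gave small sums. NK cell markers summed to 54.3 to 60.4 CPM in FCM and 23.0 to 24.4 CPM in TCM, with Eomes (-1.38 ± 0.11, adjusted p = 1.56e-05) and Ncr1 (-0.75 ± 0.18, adjusted p = 0.00721) lower, Klrb1c not passed and Klra4 at 0. Stromal and epithelial markers summed to 35.1 to 42.0 CPM in FCM and 12.6 to 14.2 CPM in TCM, with Pecam1 (-1.62 ± 0.13), Epcam (-1.01 ± 0.19) and Cdh1 (-3.0 ± 0.32) lower, adjusted p = 1.55e-05, 0.00165 and 8.09e-05, and Krt8 at 0. Eomes alone gave 48.1 to 55.7 CPM of the NK cell sum in FCM and 19.6 to 20.5 CPM in TCM. Pecam1 alone gave 26.7 to 34.0 CPM of the stromal and epithelial sum in FCM and 9.26 to 10.5 CPM in TCM. Both sums therefore mainly follow these genes and say little about the other markers of their lists. Eomes is not taken here as particular to NK cells, and neither sum is read as a level of its cell type. The part of any of these cell types in the chemokine values was not tested.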

How the data were processed

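The 2 tables of the series were read. The deposited count table holds whole numbers, raw reads over exons for each gene symbol. The deposited normalized table holds a signal, in which the authors had scaled each library's gene counts by its size factor, and it served to check the headers. With each of its columns divided by what a single read is worth, 100% of values came out whole (tolerance 0.1 reads), and edgeR on these reads, grouped as that table is titled, called 3726 genes higher and 3584 lower. The submitters' processing notes name STAR 2.7.2d, DESeq2 1.28.1 and the build mm10. For the counting tool, annotation and strand the sources used here give nothing, so overlapping genes may share reads. The 92 spike-in rows held 0 counts and were left out, and 27 rows with a date as symbol were tested and not named.

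After filterByExpr and TMM scaling, edgeR's quasi-likelihood test (edgeR 4.0.16, R 4.3.3) was run on the groups without further terms, adjusted by Benjamini-Hochberg over 12423 genes, with a threshold of 0.05. The standard error is the log2 difference over the square root of F. The script was tested on simulated data. Members, gene lists and tests were chosen with earlier results of these data known. Besides the members, the text names by rule the 3 genes of smallest p in each list, direct receptor or ligand partners, the 3 most abundant of each marker list, up to 6 called neighbours by smallest p and the 2 genes most alike to each member (mean log2 CPM of at least 3, prior count 2). Named after their values were seen were Arrb1, Gnai3, Gnai2, Rac2, Fpr1, Ccr1, Ifng, Irf1, Irf8, Ifnb1, Ifnar1, Ifnar2, Stat2, Irf9, Tap1, Psmb8, Psmb9, Tnf, Il1b, Il17a, Tlr4, Khsrp, Zfp36l1, Zfp36l2, Rc3h1, Adam17, Adam10, Cxcr4, Socs1, Aamp, Ctdsp1, Tns1, Arpc2, Pnkd, Ackr2, Clec9a, Itgax, Siglech, the overlapping genes Art3, Gm2673 and Zmynd15, untested CXC genes and the further markers in short counts. Ly6g of the neutrophil list was not analysed here, and a few genes that the rule names are not reported here.

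Replicates of a group differed by more than sampling noise, and none was counted as a duplicate. Deviations from the group means correlated between same-numbered libraries with r of 0.6, 0.146 and 0.36, each over 0.1. No label says that the numbers pair libraries, so the main fit held no pairing. The replicate block, which adds a term for the replicate number, is an alternative only. Replicate 2 of FCM correlated more with replicate 3 of TCM (0.424) than with its own number, and replicate 3 of FCM with replicate 2 of TCM at 0.266, so replicate 1 alone stands out as a pair. Promoters come from RefSeq's table on GRCm38.p6 and gene models from GENCODE M21. Alternatives were DESeq2 1.42.0, its size factors, library totals, other filters, the replicate block, leaving out each library, the other header, other exon lengths and a distance of 100 kb.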

Additional observations from a re-analysis of the deposited data

How the results depend on the processing

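Directions depend on which deposited header is right. Under the normalized table's header 3726 genes were higher in TCM and 3584 lower, and the log2 differences became -7.19 for Cxcl1, -4.35 for Cxcl2, -5.28 for Cxcl3, 2.51 for Cxcl9, 2.04 for Cxcl10, 2.10 for Cxcl11, 0.58 for Cxcl16 and 4.78 for Cxcr2. Among other named genes they became -5.14 for Cxcl5, 1.10 for Ppbp, 0.87 for Cxcr3, -1.16 for Cxcr6, 2.42 for Fgr, 2.07 for Pik3r6, 2.77 for Tlr2, -1.71 for Il1a, -2.07 for Il6, 2.54 for Irf7, 1.95 for Gbp3, 2.09 for Gbp2, -1.31 for Zc3h12a and -0.94 for Zc3h12d, 3.76 for Mmp9, -7.03 for Mmp12, 1.24 for Dpp4, 2.21 for Ptafr, -2.61 for C3ar1, 3.31 for Alox5, 2.37 for S100a9, 1.65 for S100a8, 5.39 for Ngp, 3.66 for Lyz2, -0.70 for Cd14, -1.02 for Ccr7, 0.70 for Fscn1 and -2.98 for Batf3, and -0.76 for Cd3d, -0.51 for Cd28, 1.12 for Cd79a, 1.38 for Eomes, 0.75 for Ncr1, 1.62 for Pecam1, 1.01 for Epcam, 3.0 for Cdh1, 2.85 for Naaa, -2.38 for Bcl6b, 0.95 for Sdad1 and -1.54 for Tmbim1, with a fitted -11.04 for U90926 that is no bound. Counts of higher and lower genes then were 11 and 2 for Cxcr2 signalling, 14 and 1 for the interferon gamma axis, 0 and 2 for mRNA decay, 3 and 1 for the proteases and 8 and 2 for other attractants. Scaling by library totals alone moved the median of all genes by -0.21, to -0.23, and called 2364 genes higher and 3965 lower, so that 37.4% of calls were higher against 49.0%. Cxcl10 was then at -2.25 and Cxcl16 at -0.78, or -2.02 and -0.55 relative to that median (-2.02 and -0.56 with TMM), and counts of rises were 1 for Cxcr2 signalling, 2 for NF-kB and 1 for attractants, while 2 decay factors fell. The replicate block, which treats same-numbered libraries as pairs though no label says so, called 4509 genes higher and 4594 lower. It gave 2 rises and 2 falls among other CXC receptors, 4 rises in Cxcr2 signalling and 4 rises and 3 falls among decay factors, with 1 rise among B cell markers, and changed the call of no other gene named by rule. Without both replicate 1 libraries, a setting chosen after seeing the data, these were 2 and 3, 4, and 4 and 3, with 2 rises on the interferon gamma axis (Socs1 joining) and Cxcl16 at -0.70. Leaving out 1 library at a time gave 0 to 1 falls in other CXC ligands, 1 to 2 rises and 1 to 3 falls in other receptors, and 1 to 3 rises in Cxcr2 signalling. It gave 4 to 9 rises in NF-kB, 2 to 4 rises in decay factors, 5 to 9 falls among neighbours and -5.62 to -4.45 for Cxcr2. With no filter besides a count above 0, 2 other receptors fell, and within 100 kb 5 neighbours rose and 6 fell. The cause of these changes was not tested. No other alternative reversed a member, and depth limits Cxcl1 in FCM and Cxcr2 in TCM most.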
